A study of Mus musculus with 2 samples.

Results

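The cytosolic heat shock proteins are described here by 10 genes, Hspa8, Hspa1b, Hspa4, Hsph1, Hsp90aa1, Hsp90ab1, Dnaja1, Dnajb1, Hspb1 and Hsf1. They were found by their gene names among the non-control spots of both arrays, which gave 21 of the 41141 probes, each printed as 1 spot. The array held 18181 coding genes, meaning gene names with at least 1 RefSeq mRNA accession. NIH3T3 cells, a mouse embryonic fibroblast line, were left untreated (control) or were treated with 10 µM thapsigargin for 3 h. All cells grew in medium with 10% serum, and RNA from 3 preparations per condition was pooled on 1 two-colour array. Thapsigargin blocks the calcium pump of the endoplasmic reticulum (ER) and so disturbs protein folding there. Cy3 marked RNA from polysomes (P), where mRNAs carry several ribosomes, and Cy5 marked RNA from the pooled fractions with free RNA or 1 ribosome (FM). With 1 array per condition no difference has a replicate check, no p-value is given, and the preparations' own spread is not in any error given here.

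Heat shock proteins are chaperones that hold newly made and damaged proteins and help them fold. In the cytosol, HSP70 proteins bind short unfolded stretches, J proteins deliver clients to them and speed their ATP cycle, and HSP110 proteins exchange their nucleotide. HSP90 then takes over kinases, steroid receptors and other clients, and small heat shock proteins keep unfolded proteins from clumping. HSF1 is the transcription factor that switches on many of these genes when unfolded proteins build up in the cytosol. The ER has its own HSP70 (BiP, from Hspa5) and HSP90 (Grp94, from Hsp90b1), which are targets of the unfolded protein response. The comparison asked how the mRNAs of the cytosolic set were distributed between polysomes and lighter fractions when stress was applied to the ER.

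The probes are 60 bases long, and 1 with coding sequence is shown for Hspa8, Hspa4, Hsp90ab1, Dnaja1 and Dnajb1, on which several probes were set side by side. They are written 5′ to 3′ with positions on mm9, as the files give them. The Hspa1b probe is shown because the coding sequence of this gene is nearly identical to that of its neighbour Hspa1a, so hybridised RNA of these genes cannot be told apart.
Hspa8 (probe A_51_P170371, chr9:40612674-40612733, + strand): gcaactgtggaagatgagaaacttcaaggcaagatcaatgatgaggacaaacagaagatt
Hspa4 (probe A_52_P617817, chr11:53094143-53094202, - strand): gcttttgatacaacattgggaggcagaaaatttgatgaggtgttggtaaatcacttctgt
Hsp90ab1 (probe A_52_P257204, chr17:45706503-45706562, - strand): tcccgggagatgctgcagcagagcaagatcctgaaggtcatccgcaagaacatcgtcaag
Dnaja1 (probe A_52_P106429, chr4:40677306-40678761, + strand, across an intron): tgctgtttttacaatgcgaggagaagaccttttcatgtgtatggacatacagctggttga
Dnajb1 (probe A_52_P171663, chr8:86134225-86134284, + strand): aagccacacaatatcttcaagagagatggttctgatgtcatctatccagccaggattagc
Hspa1b (probe A_52_P304902, chr17:35095608-35095667, - strand): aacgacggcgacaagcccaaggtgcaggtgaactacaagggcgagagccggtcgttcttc

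Polysome loading of an mRNA is given as log2 P/FM, in which the signal of P, less its local background, is divided by that of FM. Abundance is given as A, for which the log2 signals of P and FM were averaged. Each probe needed an A above 4.5 on both arrays, and the 153 negative control spots all lay lower. Of the heat shock genes, 8 passed with 17 probes, and those 17 probes were well above background in both fractions on both arrays. Hspa1b and Hspb1 did not pass, nor did 1 cDNA probe of Hspa4. Of all coding genes 10276 passed, and their median log2 P/FM was 0.31 for control cells and -0.30 under thapsigargin. The share of spots well above background lay between 42.5% and 46.3% in each fraction and condition, and no spot was saturated. All 7 fibroblast markers (Col1a1, Col1a2, Vim, Thy1, Pdgfrb, Fn1 and S100a4) were detected, while Epcam, Cdh1, Ptprc, Pecam1 and Kdr were not well above background. The leukocyte marker Cd3e was detected by 1 of its 2 probes, as were Col1a2 and Vim.

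Thapsigargin was accompanied by a lower log2 P/FM of 7 of the 8 measured heat shock genes on the unscaled arrays, and by a higher A of all 8. Of the 10276 coding genes, 7151 had a lower log2 P/FM and 7910 a higher A, so both directions were those of most genes. With centred arrays A was higher for 5 of the 8, and with normexp background correction or the software's processed signals for 6 of the 10 genes then measured. The median change in A of all coding genes in these settings was -0.12, -1.53 and -0.04, in that order. The median change in log2 P/FM over the 8 genes was -1.27, against -0.69 over all coding genes, and the median change in A was 0.83 against 0.38. In the separate fractions, the median change of the FM signal was 1.25 on the log2 scale (0.71 over all genes) and that of the P signal was 0.12 (0.04 over all genes). The FM signal was higher for each of the 8 genes, and for 8814 of the 10276 coding genes. The P signal was higher for 4 and lower for 4, and it was higher for 5299 of the coding genes. The direction of the change in log2 P/FM depends on how the arrays are scaled. It was positive, with a median of 0.14 for the 8 genes, after loess normalization within each array, and it was 1.21 when each channel was scaled to the 10 spike-in probes, which added 2.48 to each change. In the study, P and FM RNA entered labelling in the proportions found in the gradients. P RNA was the larger part in control and FM RNA the larger part under stress. The unscaled values keep this difference in input. How much of it loess or spike-in scaling removes was not tested. Relative to the median of all coding genes the heat shock genes lay 0.59 lower on the unscaled arrays and with spike-in scaling. They lay 0.28 higher after loess, 0.19 higher with the software's processed signals and 0.11 higher with its log ratio. With normexp background correction the difference was -1.03, over the 10 genes then measured.

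**Figure D1:**
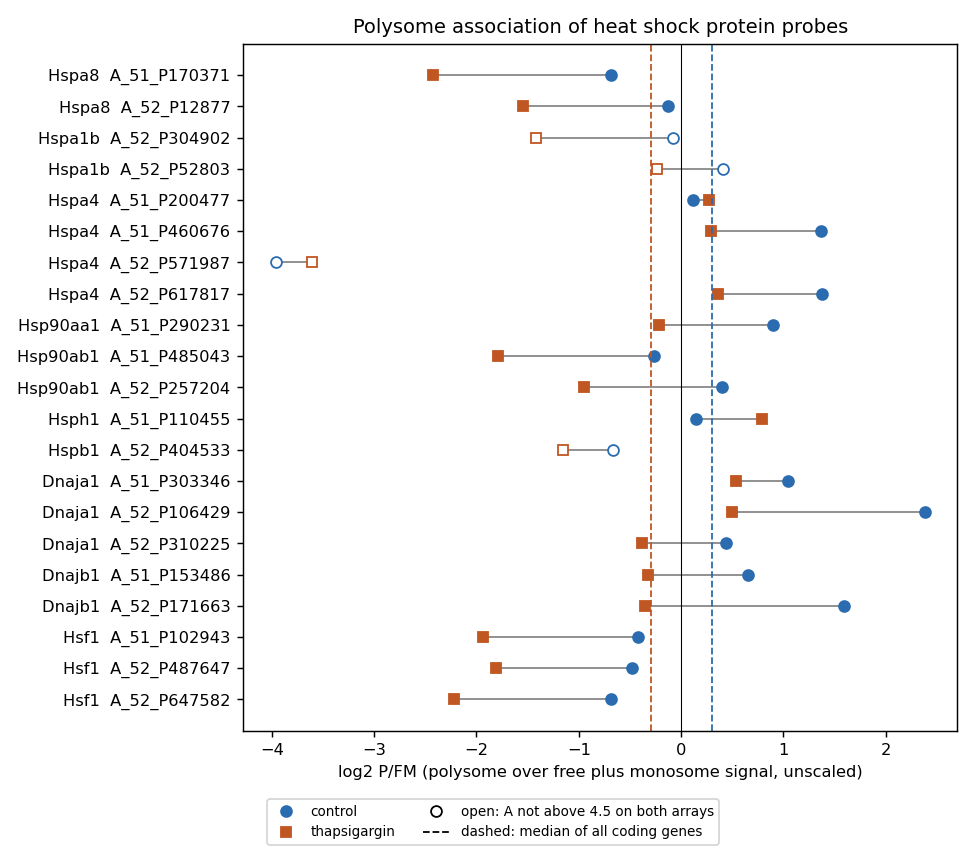
log2 P/FM (x axis, unscaled) of each of the 21 probes (y axis) in control (circles) and thapsigargin (squares), with open symbols for probes whose A was not above 4.5 on both arrays and dashed lines at the medians of all coding genes (0.31 and -0.30). Among filled symbols the square lies left of the circle for each probe except those of Hsph1 and 1 probe of Hspa4, and with spike-in scaling, which moves all squares by 2.48, it would lie to the right for each of them.

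The thresholds of the study sort mRNAs into classes. An mRNA is sensitive if its change in log2 P/FM is -0.8 or below, and 6 of the 8 heat shock genes met this (Hspa8, Hsp90aa1, Hsp90ab1, Dnaja1, Dnajb1 and Hsf1), against 46.4% of all coding genes. The same 6 were lower by 1 or more, against 40.2% of all. None was resistant (0.8 or above on both arrays, 3.06% of all), inducible (0 or below in control and higher by 1 or more, 9.9% of all) or otherwise higher by 1 or more (11.2% of all). With the software's processed signals or log ratio, loess or spike-in scaling, 0 heat shock genes were sensitive, against 34.5%, 32.7%, 27.4% and 0.769% of all coding genes. In A, 4 of the 8 (Hspa4, Hsp90aa1, Hsph1 and Dnajb1) were higher by 1 or more, against 11.8% of all coding genes, and none was lower by 1 or more, against 0.691%. After centring both arrays, which brings the median change in A of the 8 genes from 0.83 to 0.32, 0 of the 8 were higher in A by 1 or more, against 2.13% of all.

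The change in log2 P/FM also went with brightness across all genes. Among genes with a mean A from 9 to 11, where Hspa4, Dnajb1 and Hsf1 lay, the median change was -1.27 and 65.3% were sensitive. From 11 to 13, with Hsp90ab1 and Hsph1, the median was -1.68 and 78.8% were sensitive, and from 13 to 18, with Hspa8 and Hsp90aa1, 84.9% were sensitive. Dnaja1 lay between 7 and 9, with a median of -0.61 and 43.5%. Hsph1, Hspa4, Hsp90aa1, Hsp90ab1 and Hspa8 thus had a less negative change than the median gene of their brightness range, and Dnaja1, Dnajb1 and Hsf1 a more negative one. For Hsp90ab1, Dnajb1 and Hsf1 the difference was smaller than 0.36, the median SD of the change between probes of one gene. The ranges use the mean A of a gene, and its probes could lie in different ranges. Being higher in A by 1 or more was not tied to brightness in the same way, with shares of 11.3%, 9.81% and 4.76% in the ranges from 9 upward and 14.0% from 7 to 9. The part of brightness in these changes was not tested.

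Hspa8 encodes the constitutive HSP70 of the cytosol, Hsc70, which folds new proteins and uncoats clathrin vesicles. On the probe shown above, P was 19692 in control and 13684 under thapsigargin, and FM was 31587 and 73647. On the second probe, closer to the start of the gene (A_52_P12877, chr9:40611142-40611201), P was 3050 and 2433 and FM was 3338 and 7086. Both probes therefore had less P and more FM signal under thapsigargin, with log2 P/FM at -0.68 and -0.13 in control and at -2.43 and -1.54 under thapsigargin. The mean change was -1.58 ± 0.24 (SD over 2 probes), the most negative of the 8 genes, and A was higher by 0.36 ± 0.02, about the median of all genes, though its sign turned with processed signals (-0.10) and centring (-0.14). After loess the change in log2 P/FM was 0.19 and with spike-in scaling 0.90.

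Hspa1b encodes the stress-inducible HSP70, which is made in large amounts after heat shock. Its mRNA stayed near the background in both conditions. On the probe closer to the start of the gene, P was 11.8 and 12.6 and FM 12.5 in control and 33.7 under thapsigargin. Only the last value was well above background, and the ratio of these FM readings was 2.70. On the other probe, P was 20.5 and 21.3 and FM 15.5 and 25.1, with only P under thapsigargin well above background. The ratio of these P readings was 1.04. Both ratios are against readings near background and set no lower bound. The A values of 3.60 to 4.53 were about those of the brightest negative control spots, whose highest A was 4.13 in control and 4.35 under thapsigargin. No log2 P/FM is read from these signals.

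Hspa4 (Apg-2) and Hsph1 (Hsp105) are HSP110 proteins, the nucleotide exchange factors of cytosolic HSP70. Hspa4 had more signal in both fractions under thapsigargin on each of its 3 measured probes, with P going from 790 to 1686 and FM from 304 to 1314 on the coding probe shown above. On a second upstream probe, which spans an intron (A_51_P460676, chr11:53075923-53076436), P went from 1248 to 2348 and FM from 485 to 1912. On the probe nearest to the end of the gene (A_51_P200477, chr11:53073347-53073406), P went from 436 to 836 and FM from 401 to 692. These upstream probes had log2 P/FM of 1.38 and 1.36 in control and 0.36 and 0.30 under thapsigargin, a change of -1.02 and -1.07. The end probe went from 0.12 to 0.27, a change of 0.15, so the 3 probes disagreed in control (by more than a log2 unit) and met at 0.27 to 0.36 under thapsigargin. Their mean change of -0.64 ± 0.69 (SD over 3 probes) stayed above the limit for sensitive mRNAs because of the end probe. It was positive with the software's processed signals and log ratio, loess and spike-in scaling. The mean change in A was 1.30 ± 0.39, above that of 95.6% of all coding genes. It was 0.096 with normexp and 0.42 with no filter on A, settings that also let in the cDNA probe of the gene.

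Hsph1 differed from the other members. Its only probe (chr5:150419426-150419485) had P of 1695 in control and 5410 under thapsigargin, and FM of 1530 and 3119. P was 3.19-fold and FM 2.04-fold higher under thapsigargin, so log2 P/FM went from 0.15 to 0.79, and A was higher by 1.35. The change of 0.65 was above that of 83.7% of coding genes and the change in A above that of 96.3%. Hsph1 was the one member with a positive change on the unscaled arrays, and its change kept its sign in all 16 alternatives tried, from 0.64 to 3.13. It lay just under the level of 0.8 that resistant mRNAs need under thapsigargin and below it in control. The gene rests on 1 spot per array, so it has no error of its own, and the median SD of the change between probes of one gene was 0.36 over 3978 genes.

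**Figure D2:**
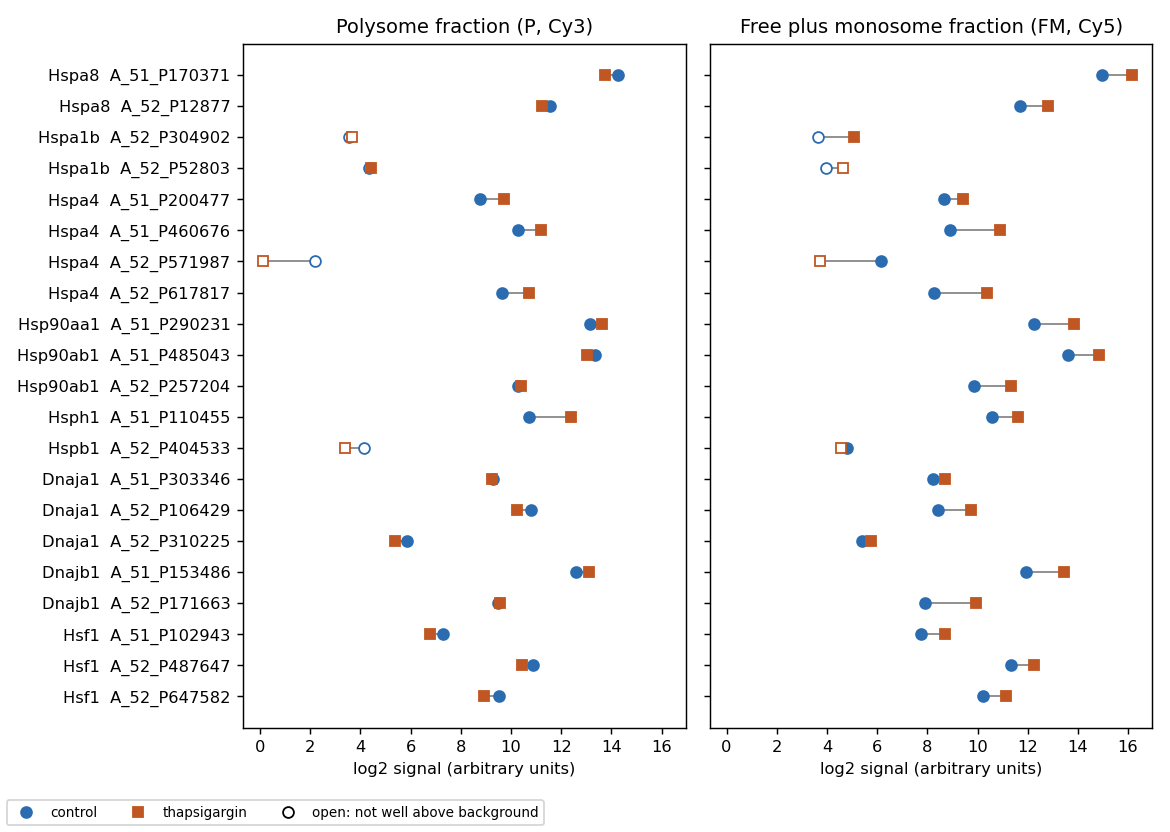
log2 signal after background subtraction (x axes, arbitrary units) of P (left) and FM (right) for each of the 21 probes (y axis) in control (circles) and thapsigargin (squares), with open symbols for signals not well above background. FM was higher under thapsigargin on each of the 17 probes that passed, while P of Hsph1 (1695 to 5410) and Hspa4 was higher and P of Hspa8, Hsf1 and Dnaja1 was lower on each of their measured probes. Of the 10276 coding genes, 8814 had a higher FM signal.

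Hsp90aa1 and Hsp90ab1 encode the cytosolic HSP90 proteins, the stress-inducible alpha and the constitutive beta form. The Hsp90aa1 probe (chr12:111929254-111929313) had P of 9186 in control and 12745 under thapsigargin, and FM of 4921 and 14776. Both fractions were higher under thapsigargin, FM 3.00-fold and P 1.39-fold, so log2 P/FM went from 0.90 to -0.21 while A was higher by 1.03. For Hsp90ab1, P was 10436 and 8450 and FM 12536 and 29169 on the probe nearer to the end (A_51_P485043, chr17:45705226-45705285). On the coding probe shown above, P was 1232 and 1343 and FM 937 and 2596. The P signal of Hsp90ab1 was thus nearly level, and log2 P/FM went from 0.07 to -1.37, a change of -1.43 ± 0.12 (SD over 2 probes) with A higher by 0.63 ± 0.24. The change of Hsp90aa1 was -1.11 on its single probe. Its sign turned with the software's processed signals and log ratio (0.68 with each), with loess (0.72) and with spike-in scaling (1.37), and that of Hsp90ab1 turned with loess (0.085) and spike-in scaling (1.05).

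Dnaja1 (Hdj2) and Dnajb1 (Hsp40) are the main cytosolic J proteins, which bring clients to HSP70. On the Dnaja1 coding probe shown above, P was 1775 in control and 1210 under thapsigargin, and FM was 340 and 856. Closer to the end of the gene, P was 58.0 and 41.2 and FM 42.7 and 53.6 on one probe (A_52_P310225, chr4:40680353-40680412). On the last probe (A_51_P303346, chr4:40680660-40680719), P was 627 and 598 and FM 304 and 412. P was lower and FM higher on all 3, but by different amounts, with changes in log2 P/FM of -1.88 on the coding probe and -0.82 and -0.51 on the others. The mean was -1.07 ± 0.72 (SD over 3 probes), with A higher by 0.16 ± 0.24. The sign of this change in A turned with normexp (-0.59), processed signals (-0.26), centring (-0.34) and the summed signal in place of A (-0.001).

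Dnajb1 had P of 719 and 767 and FM of 239 and 977 on its coding probe. On the probe nearer to the end of the gene (A_51_P153486, chr8:86135660-86135719), P was 6091 and 8911 and FM 3865 and 11182. P was somewhat higher and FM 4.09-fold and 2.89-fold higher under thapsigargin. In control the probes stood apart, at 1.59 and 0.66, and under thapsigargin they met at -0.35 and -0.33, so the changes were -1.94 and -0.98, with a mean of -1.46 ± 0.68 (SD over 2 probes). A was higher by 1.05 ± 0.01. In Hspa4, Dnaja1, Dnajb1, Hspa8 and Hsp90ab1 the measured probe nearest to the start therefore had the highest log2 P/FM in control. In Hsf1 that probe was at -0.48, between the others at -0.43 and -0.68. The probe nearest to the start had the most negative change in Dnaja1 and Dnajb1, and the less negative change in Hspa8 and Hsp90ab1. The part of probe position in log2 P/FM was not tested.

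Hspb1 encodes the small heat shock protein Hsp25. Its probe spans an intron (chr5:136364927-136365114) and had P of 17.7 in control and 10.6 under thapsigargin, neither well above background. FM was 28.0 and 23.7, well above background in control only, and the ratio of 1.19 between these readings sets no lower bound. No change in log2 P/FM is read from it.

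Hsf1 encodes the heat shock transcription factor. Its 3 probes, which lie close together (chr15:76331098-76331157, chr15:76331176-76331235 and chr15:76330532-76330592), gave P of 158, 736 and 1864 in control and 109, 488 and 1382 under thapsigargin. FM was 213, 1182 and 2606 in control and 418, 2265 and 4858 under thapsigargin. Each probe had less P and more FM signal, and log2 P/FM went from -0.53 ± 0.14 to -1.99 ± 0.21 (SD over 3 probes). The change of -1.46 ± 0.11 was the most even among the genes with 3 probes, and A was higher by 0.21 ± 0.03, less than the median of all genes. Among the alternatives tried, the change in log2 P/FM turned its sign with spike-in scaling only, and the change in A with normexp (-0.14), processed signals (-0.18) and centring (-0.30).

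**Figure D3:**
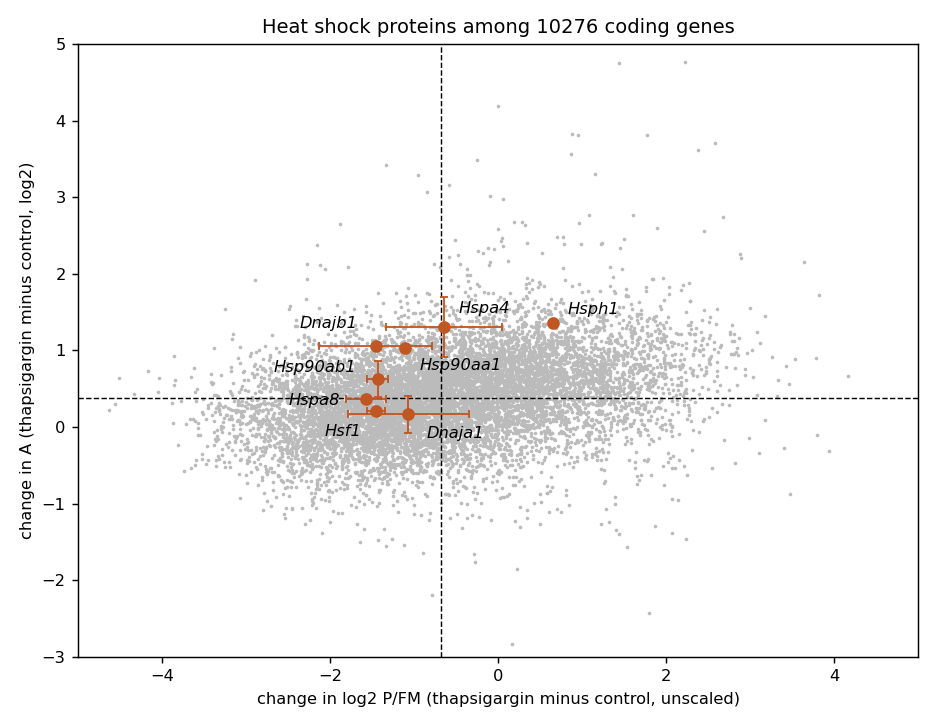
Change in log2 P/FM (x axis, unscaled) against change in A (y axis, log2) for 10276 coding genes (grey) and the 8 measured heat shock genes (orange, with bars of the SD over probes where there was more than 1), with dashed lines at the medians of all genes (-0.69 and 0.38). Hsph1 lies to the right of the median and Hspa4 close to it, while Hspa4, Hsph1, Dnajb1 and Hsp90aa1 lie above 1 in A; spike-in scaling would move every point to the right by 2.48.

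The 8 genes can be ordered by log2 P/FM in each condition. In control the order was Dnaja1 (1.29), Dnajb1 (1.12), Hspa4 (0.95), Hsp90aa1 (0.90), Hsph1 (0.15), Hsp90ab1 (0.07), Hspa8 (-0.41) and Hsf1 (-0.53). The first 4 were above the median of all genes and the last 4 below it. Neighbours differed by less than 0.32, the median SD between probes of one gene, except Hsp90aa1 and Hsph1, and Hsp90ab1 and Hspa8. Under thapsigargin the order was Hsph1 (0.79), Hspa4 (0.31), Dnaja1 (0.22), Hsp90aa1 (-0.21), Dnajb1 (-0.34), Hsp90ab1 (-1.37), Hspa8 (-1.99) and Hsf1 (-1.99). There the neighbours Hspa4 and Dnaja1, Hsp90aa1 and Dnajb1, and Hspa8 and Hsf1 differed by less than the median SD between probes (0.30). Hsph1 moved from the fifth place to the first, and Hsp90ab1, Hspa8 and Hsf1 made up the lower end in both conditions. Centring and spike-in scaling shift all genes of an array alike and leave both orders as they are.

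**Figure D4:**
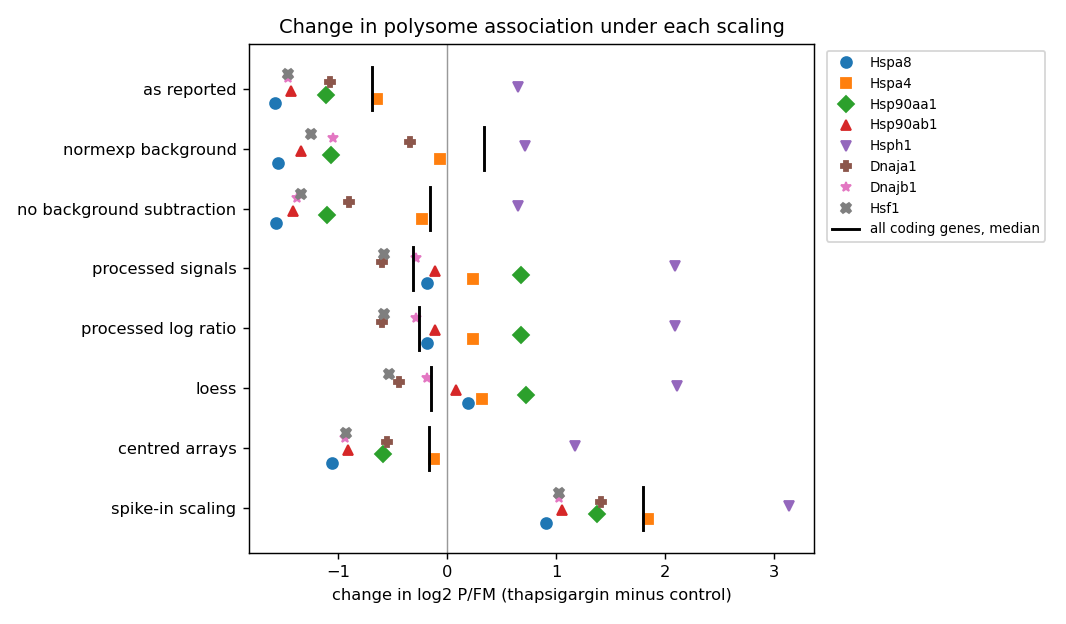
Change in log2 P/FM (x axis) of each of the 8 measured heat shock genes (symbols) under the reported processing and 7 other ways to treat background or scale (y axis), with the median of all coding genes as a vertical bar. Hsph1 is the highest of the 8 in every row, at 0.65 as reported, and the remaining genes pass from mostly negative to mostly or all positive between the reported values, loess and spike-in scaling.

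Promoters were compared in RefSeq sequence (GRCm38.p6), over the 250 bases before each start, for 6 of the 10 genes that the table held. The motif searched was the heat shock element that HSF1 binds, as a pair of facing units, GAANNTTC or TTCNNGAA on either strand. It was found for Hspa1b, Hsph1, Hspb1 and Dnaja1, that is 4 of 6, against 14.5% of 27025 genes with a promoter in the table. Among the other cytosolic relatives it was found for 12 of 45 (26.7%). Members with no promoter in the table, Hspa8 and Hspa4 among them, were not searched. A run of 3 units was found for 0 of 6 genes (0.514% of all). Of the 4 genes with the motif, Hsph1 and Dnaja1 were measured, with changes in A of 1.35 and 0.16, and Hspa1b and Hspb1 were near background. Hspb1 had another match at chr5:135887811-135887840, which is not shown. The motif is shown in capitals with 30 bases each, on the strand of the gene, together with Hspa1a, whose window is the same as that of Hspa1b.
Hsph1 (chr5:149636351-149636380, - strand): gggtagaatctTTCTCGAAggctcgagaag
Dnaja1 (chr4:40722333-40722362, + strand): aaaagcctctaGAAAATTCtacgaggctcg
Hspb1 (chr5:135887791-135887820, + strand): cttcaacaagaGAAGTTTCcagatgggggc
Hspa1b (chr17:34959324-34959353, - strand): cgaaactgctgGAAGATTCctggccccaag
Hspa1a (chr17:34972242-34972271, - strand): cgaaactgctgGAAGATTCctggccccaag

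The ER stress element, through which ATF6 acts in the unfolded protein response, was searched as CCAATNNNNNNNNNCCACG on either strand. It was found for 0 of the 6 cytosolic genes and for Hspa5, Hsp90b1 and Dnajc3 among 6 genes of the ER list with a promoter, against 0.13% of all genes. It is shown for the ER counterparts of HSP70 and HSP90 for comparison with the windows above. Hsp90b1 had another match at chr10:86705527-86705556, which is not shown. A match is a description of the letters only, and these windows do not cover more distant elements.
Hspa5 (chr2:34772020-34772049, + strand): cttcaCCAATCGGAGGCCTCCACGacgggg
Hsp90b1 (chr10:86705632-86705661, - strand): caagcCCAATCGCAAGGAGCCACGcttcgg

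Relatives of the same families were read from lists by role. The cytosolic relatives made up 6 lists with 54 genes, of which 46 were measured, 7 had too low an A and Nudc had no RefSeq mRNA probe. Bag6 is among the measured genes under its older name Bat3. Of the 46, 31 were sensitive, 3 were resistant (Hspa12b, Bag3 and Unc45a), 0 were inducible and 3 were higher in A by 1 or more. The shares of all coding genes were 46.4%, 3.06%, 9.9% and 11.8%, in that order. Their median change in log2 P/FM was -1.28, close to the -1.27 of the heat shock genes. With spike-in scaling it turned positive (1.20, against 1.80 for all coding genes). With processed signals 21 of 49 relatives were sensitive, and with the log ratio, loess and spike-in scaling 21, 15 and 0 of 46. The shares of all coding genes in these settings were 34.5%, 32.7%, 27.4% and 0.769%. Their median change in A was 0.23, below the 0.38 of all coding genes, whereas that of the heat shock genes was 0.83. In A the heat shock genes thus stood above their cytosolic relatives, and in log2 P/FM both medians were close, on the unscaled arrays. With loess the median change in log2 P/FM was 0.14 for the heat shock genes and -0.48 for the relatives, with processed signals -0.12 and -0.62, and with the log ratio -0.15 and -0.67. With no replicates the difference was not tested.

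Among other cytosolic HSP70 and HSP110 genes, the changes in log2 P/FM ran from -2.32 for Hspa14, a ribosome-associated HSP70, and -0.32 for Hspa12b to -0.23 for Hspa2. The Hspa1a probe barely passed the filter, with A of 4.64 and 4.55, and since not each of its signals was well above background no change is read from it. Hspa14 was higher in A by 1.44 and Hspa4l, the third HSP110 gene, by 1.43. In the J protein list, Dnajc2 (-2.08) and Dnaja2 (-1.62) had the lowest changes and Dnajb4 (0.20) and Dnajb6 (-0.76) the highest, and the highest change in A was 0.86 for Dnajb2.

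The nucleotide exchange and ubiquitin partners of HSP70 held Bag3, a co-chaperone that routes clients to autophagy and is itself a target of HSF1. Bag3 went from 1.25 to 1.77 in log2 P/FM, with P 2.83-fold and FM 1.97-fold higher under thapsigargin and A higher by 1.24. It was resistant, and its values were the nearest in this list to the pattern of Hsph1, with a higher P than FM gain on a single probe. The other 8 measured genes of the list were sensitive (46.4% of all coding genes), from Bag2 at -0.88 to Bag1 at -2.0 and Stub1, the ubiquitin ligase Chip, at -3.03. With processed signals 4 genes of the list were sensitive, with the log ratio 5, with loess 3 and with spike-in scaling 0. The shares of all coding genes in these settings were 34.5%, 32.7%, 27.4% and 0.769%.

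The HSP90 co-chaperones had 11 of 16 sensitive genes, against 46.4% of all coding genes. The lowest changes were those of Pih1d1 (-2.78) and Ahsa1, the activator of the HSP90 ATPase (-2.70), and both stayed negative with spike-in scaling. Ahsa1 went from 2.65 to -0.05. The highest were those of Cdc37l1, at 0.61 ± 1.68 (SD over 3 probes), and of Unc45a, at -0.02 with A higher by 0.96. Among other small heat shock proteins, Cryab (-1.42) and Hspb8 (-1.28) had the lowest and Hspb6 (-0.65) and Hspb2 (-0.86) the highest changes. A of Cryab changed by -0.99 ± 0.17 (SD over 2 probes), and the highest change in A was 0.34 for Hspb11. Of the other heat shock factors, Hsf4 changed by -1.84 and Hsbp1, which binds HSF1, by 0.09 in log2 P/FM, while no change is read from Hsf2, whose signals were not all well above background.

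**Figure D5:**
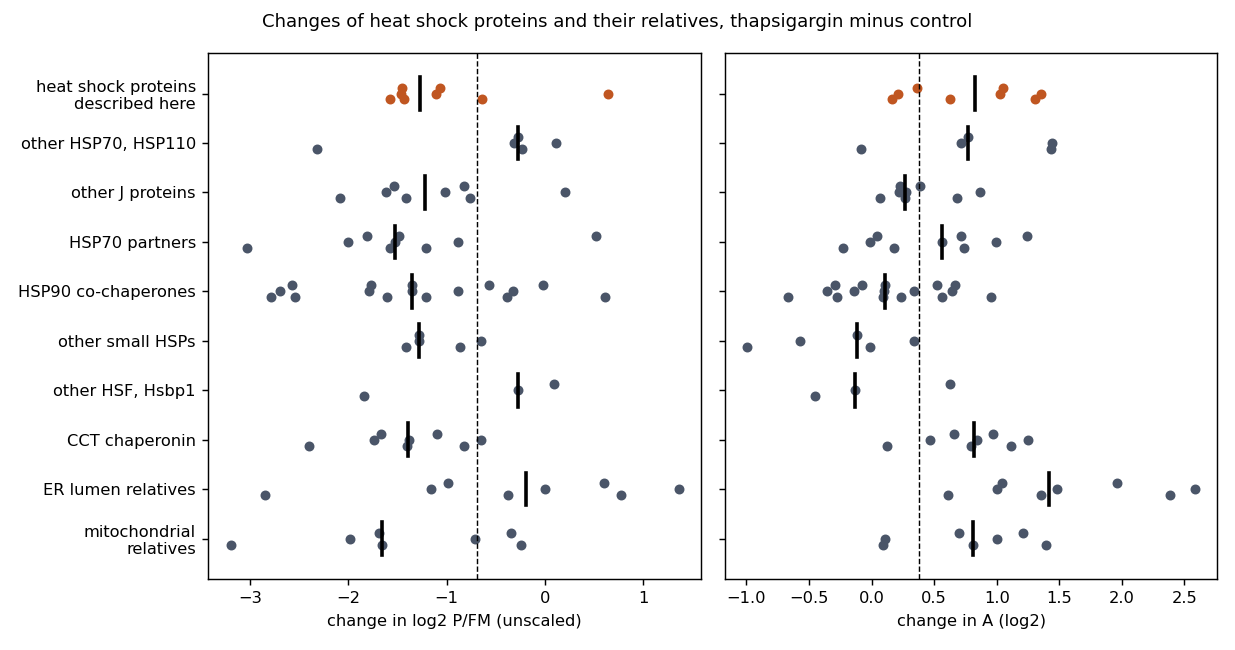
Change in log2 P/FM (left, unscaled) and in A (right, log2) for the 8 measured heat shock genes (orange) and for the measured members of 9 lists of relatives (grey), with the median of each list as a short bar and the median of all coding genes as a dashed line. The ER relatives have the highest median in both panels (-0.19 and 1.42), and spike-in scaling would move every point of the left panel by 2.48.

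The chaperonin CCT folds actin and tubulin in the cytosol. Its 8 genes had a median change in log2 P/FM of -1.39, with 7 sensitive (46.4% of all coding genes), and a median change in A of 0.82, near that of the heat shock genes. The changes ran from Cct7 (-2.40) and Cct8 (-1.74, with A higher by 1.25) to Cct3 (-0.83) and Tcp1 (-0.66). The mitochondrial relatives had a median of -1.66 with 4 of 7 sensitive (46.4% of all coding genes) and a median change in A of 0.81. Grpel1 (-3.20) and Hspe1 (-1.99) were lowest, and Hspd1 (-0.34) and Hspa9, the mitochondrial HSP70 (-0.24, with A higher by 1.39), were highest. With processed signals, the log ratio and loess the CCT median was -0.07, -0.15 and -0.15, with 1 of 8 sensitive in each (34.5%, 32.7% and 27.4% of all coding genes). With spike-in scaling these medians were 1.09 for CCT and 0.83 for the mitochondrial genes, against 1.80 for all coding genes.

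On the unscaled arrays the ER relatives had the highest medians of the lists in both measures. Of 8 measured genes 7 were higher in A by 1 or more (11.8% of all coding genes), with a median of 1.42. The list had 3 sensitive genes (46.4% of all coding genes) and a median change in log2 P/FM of -0.19. That median was positive with each other scaling tried, from 0.04 with normexp background correction to 2.29 with spike-in scaling. The median of all coding genes was 0.34 with normexp and 1.80 with spike-in scaling. The ER list thus differed from all genes by -0.30 with normexp, and by 0.49 to 0.83 with the other scalings. Hspa5 went from 1.06 to 2.43 in log2 P/FM, with P 6.24-fold and FM 2.43-fold higher and A higher by 1.96. Against it, cytosolic Hspa8 had P at 0.695-fold and 0.798-fold of control on its probes. Hsp90b1 stayed at 0.46 in both conditions while A was higher by 2.58 ± 0.10 (SD over 2 probes), compared with 0.63 and 1.03 for the cytosolic HSP90 genes. For Dnajb9 log2 P/FM changed by 0.78 ± 0.45 and A by 2.39 ± 0.42 (SD over 3 probes), though not each of its signals was well above background. At the other end, Sil1, an exchange factor of BiP, changed by -2.85 in log2 P/FM and Dnajc3 by -1.16 ± 1.07 (SD over 4 probes). Dnajb11 had no RefSeq mRNA probe.

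Genes of other roles lay near the separate medians of the cytosolic set. Among 5782 coding genes with A above 7 and all signals well above background, the 5 nearest to the medians of the heat shock genes (control and thapsigargin log2 P/FM and change in A, by Euclidean distance over those 3 values) were Kank2, Rad21, Fubp3, Dbn1 and Cul4a. Their log2 P/FM lay between 0.51 and 0.55 in control and between -0.31 and -0.21 under thapsigargin, and A was higher by 0.82 to 0.86. Their change in log2 P/FM was -0.82 to -0.73, less negative than the median change of -1.27 for the heat shock genes. Actb, which encodes beta-actin, went from 1.49 to -0.19 with A higher by 0.24. In a bulk lysate, fewer cells with an mRNA and less of it per cell cannot be told apart, and since labelling started from a fixed amount of RNA, A is relative to the RNA of the sample.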

How the data were processed

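The 2 samples, control and thapsigargin, were grouped by their labels. Per the labels, P and FM fractions came from a 10 to 40% sucrose gradient, and 300 ng of RNA in total was labelled per sample. In the study, the proportions of P and FM RNA found in the gradients were kept for labelling. Equal volumes of labelled P and FM RNA were then hybridised. Feature Extraction 10.7.1 read each spot and its surroundings, and per the file headers these intensity values carry no normalization. The deposited files also hold processed intensity values and a log10 ratio of Cy5 over Cy3 from this software. Per the file headers, flags (score of 0 or 1) mark spots well above background, saturated or outlying. A series table deposited by the authors holds log2 P/FM per accession, without normalization.

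From each mean spot signal the median of its local background was taken off, differences under 0.5 were raised to 0.5 as in the study's own method, and no normalization was applied. Outlier flags on either array removed 295 spots (0.68%), none of them of a member. Spots were averaged per probe, probes with A above 4.5 on both arrays were kept, and their means were taken per gene name. A coding gene has at least 1 probe of an NM accession. Changes are thapsigargin minus control. With 1 array per condition no test was made; precision is limited by how few arrays there are. SDs are between probes and cover array error only. Both arrays were on 1 slide and in 1 scan, and dyes were not swapped.

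For a signal not well above background on an array, a stand-in was used in ratios. It was the higher of its own value and the lowest signal of that fraction well above background on that array. For each probe given it was its own value, so these ratios compare readings and are not lower bounds. All members with each probe are named, and from each list the pair with the highest and the pair with the lowest change in log2 P/FM, the highest change in A, and Hspa5, Actb and the nearest genes. Members, lists, rules and alternatives were chosen with earlier results of these data known. Averaging and the class thresholds were tested on simulated log2 P/FM values with planted changes well past the thresholds. The steps for background, scaling and motifs were not part of that test. Probe positions are those of the files (mm9). Promoters came from a RefSeq table of GRCm38.p6, so both sets of positions are not comparable. Python 3.11.15, pandas 2.3.3, numpy 2.4.6, matplotlib 3.10.9, R 4.3.3 and limma 3.58.1 were used.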

Additional observations from a re-analysis of the deposited data

How the results depend on the processing

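No paired analysis was possible because each condition has 1 array, and for the same reason no array could be left out. The median change in log2 P/FM of the heat shock genes (-1.27) was -0.70 with normexp background correction, -0.12 with the software's processed signals, -0.15 with its log ratio, 0.14 with loess, -0.75 with centred arrays and 1.21 with spike-in scaling. The median of all coding genes (-0.69) was 0.34, -0.31, -0.26, -0.14, -0.16 and 1.80 in these settings. The difference from it was -1.03 with normexp, against -0.59 as reported. The number of sensitive genes (6 of 8) was 0 with processed signals, the log ratio, loess and spike-in scaling, against 34.5%, 32.7%, 27.4% and 0.769% of all. With each probe counted by itself it was 14 of 17, against 44.4% of all probes. Resistant genes (0) numbered 1 with processed signals (6.46% of all genes) and 4 with spike-in scaling (29.9% of all). Inducible genes (0) numbered 1 with processed signals, the log ratio, loess, centring and spike-in scaling, against 14.1%, 14.5%, 15.2%, 17.8% and 35.2% of all. The median change in A (0.83) was 0.21 with normexp, 0.49 without background subtraction, 0.17 with processed signals, 0.32 with centring, 1.1 with spike-in scaling, 0.50 with no filter on A and 0.46 over single probes. The median of all genes or probes in the same settings was -1.53, 0.05, -0.04, -0.12, 0.65, 0.14 and 0.40, so the difference from it ranged from 0.06 over single probes to 1.74 with normexp, against 0.45 as reported. The number of genes with A higher by 1 or more (4) was 1 with normexp, 0 with processed signals, 0 with centring and 2 with the summed signal in place of A. The shares of all coding genes in these settings were 0.589%, 4.66%, 2.13% and 11.8%. With normexp, unsubtracted and processed signals and no filter, all 10 genes were measured. The sign of the change in log2 P/FM turned for Hsp90aa1 with processed signals (0.68), the log ratio (0.68), loess (0.72) and spike-in scaling (1.37), for Hspa8 and Hsp90ab1 with loess (0.19 and 0.085) and spike-in scaling (0.90 and 1.05), and for Dnaja1 (1.41), Dnajb1 (1.02) and Hsf1 (1.03) with spike-in scaling. Of the remaining values of single genes under the alternatives, 184 moved by less than the spread between probes and 69 by more, with no turn of a called sign. The change in A, on which no call rests for these genes, turned negative for Hspa8 under 2, Dnaja1 under 4 and Hsf1 under 3 alternatives, as given with each gene. Centring brings the array medians to 0 by construction; the cause of the other differences was not tested. Signal near background leaves no change in log2 P/FM to be read for Hspa1b and Hspb1.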

Other observations

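Other RNA from the Hspa4 region was measured by cDNA probes. The probe of AK053601 (chr11:53078060-53078119 on mm9), which carries the name Hspa4, lies between the upstream probes of the gene. Its P signal was 4.53 in control and 1.1 under thapsigargin, neither well above background. Its FM signal was 70.6 and 13.4, well above background in control only. The FM reading was 5.28-fold higher in control, the opposite of the coding probes. A probe of AK038627, a cDNA that the array's annotation describes as heat shock protein 4 and that carries no gene name of the set, lies further toward the start (chr11:53113062-53113121). It was picked after its values were seen. P was 224 in control and 101 under thapsigargin and FM was 2389 and 276, all well above background, so log2 P/FM went from -3.42 to -1.45 and A changed by -2.13. In control both cDNA probes thus had most of their signal in FM, and both had less FM signal under thapsigargin, whereas the mRNA probes of Hspa4 had more. Whether they detect unspliced or separate transcripts was not tested.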
